A study of Mus musculus with 18 samples.

Results

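Of the TRIM family, 8 genes (*Trim12a*, *Trim12c*, *Trim14*, *Trim21*, *Trim25*, *Trim30a*, *Trim30d* and *Trim34a*) were followed in mouse pancreatic alpha, beta and delta cells with and without interferon gamma (IFNγ). They were taken by name, with earlier results of these data known, from 72 TRIM family genes and 55487 genes in all. Each belongs to the part of the family known for a role in interferon responses. Islets of adult male C57BL/6 mice, with no transgene or deletion in any group, were handpicked after collagenase digestion and cultured whole. Of the 6 groups, 3 (alpha IFNγ, beta IFNγ, delta IFNγ) came from islets given 5 ng/mL of IFNγ for 20 h and 3 (alpha control, beta control, delta control) from untreated islets. After dissociation, Epcam-positive cells lacking CD45, TER119 and CD31 were sorted as alpha (CD24 low, CD71 negative), beta (CD24 low, CD71 positive) or delta cells (CD24 high), and total RNA of each sort was sequenced, with 3 libraries per group and 18 in all. The methods call each sample biologically independent, and the sources used here do not state whether mice were pooled.

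TRIM proteins are built from a RING finger, a B-box and a coiled coil, and many of them attach ubiquitin to other proteins. IFNγ binds its receptor, the kinases Jak1 and Jak2 relay the signal, and target genes are turned on both directly, at GAS elements, and through interferon regulatory factors, which bind interferon-stimulated response elements (ISRE). In this way interferons raise several TRIM genes in many cell types, where the proteins sense or restrict viruses and adjust the signalling of pattern recognition receptors. *Trim12a* and *Trim12c* are the mouse relatives of the retrovirus restriction factor TRIM5, *Trim34a* and the *Trim30* genes are their neighbours in a cluster on chromosome 7, *Trim21* encodes a ubiquitin ligase that binds antibody-coated virus inside the cell, *Trim25* encodes the ligase that activates the RNA sensor RIG-I, and *Trim14* encodes an adaptor of antiviral signalling at mitochondria.

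To set the members' responses beside the letters at their start sites, the promoter windows of RefSeq (GRCm38.p6, 250 bases before to 50 after each start) were matched by symbol, and 7 of the 8 members had one (not *Trim14*). The letters GAAANNGAAA, the core of an ISRE, were searched on both strands. The stretch from 50 bases before to 30 bases after the start is shown for these members and for the neighbouring gene *Trim5*, in the direction of the gene, and capitals mark the ISRE-like match.
Trim12a, chr7:104315466-104315545, minus strand: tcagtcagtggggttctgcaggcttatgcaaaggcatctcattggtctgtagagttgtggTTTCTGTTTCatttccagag
Trim12c, chr7:104353320-104353399, minus strand: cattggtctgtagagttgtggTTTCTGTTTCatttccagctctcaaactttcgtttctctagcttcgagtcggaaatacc
Trim5, chr7:104288077-104288156, minus strand: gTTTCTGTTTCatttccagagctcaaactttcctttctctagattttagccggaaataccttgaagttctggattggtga
Trim34a, chr7:104244407-104244486, plus strand: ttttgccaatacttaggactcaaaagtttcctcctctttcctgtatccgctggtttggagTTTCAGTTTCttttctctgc
Trim30a, upstream start, chr7:104465164-104465243, minus strand: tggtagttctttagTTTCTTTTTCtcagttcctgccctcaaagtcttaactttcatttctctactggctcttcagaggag
Trim30a, downstream start, chr7:104446096-104446175, minus strand: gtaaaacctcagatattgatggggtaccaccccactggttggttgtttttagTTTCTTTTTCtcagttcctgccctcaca
Trim30d, chr7:104507820-104507899, minus strand: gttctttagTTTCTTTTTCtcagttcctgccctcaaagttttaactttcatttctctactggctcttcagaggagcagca
Trim21, chr7:102565453-102565532, minus strand: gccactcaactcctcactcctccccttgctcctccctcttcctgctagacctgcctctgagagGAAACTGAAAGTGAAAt
Trim25, chr11:88999353-88999432, plus strand: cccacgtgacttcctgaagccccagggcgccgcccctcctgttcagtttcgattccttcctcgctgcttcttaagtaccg

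An ISRE-like match stood in the windows of 6 of the 7 members, all but *Trim25*, against 3.44% of the 32851 mouse promoter windows of the same length and 3 of the 49 other TRIM genes with a window (*Trim2*, *Trim5*, *Trim26*). *Trim12a*, *Trim12c* and *Trim5* carried the same 10 letters, TTTCTGTTTC, and both starts of *Trim30a* and that of *Trim30d* carried TTTCTTTTTC. *Trim21* had a pair of matches that overlapped each other, and its match lay on the gene's own strand where those of the other members lay on the opposite strand. All matches of the members fell between 41 bases before and 29 bases after the annotated start. A GAS element, searched as TTCNNNGAA, was found in none of the 7 members' windows and in 8.3% of all promoters. These are matches of letters, and binding was not measured.

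**Figure D1:**
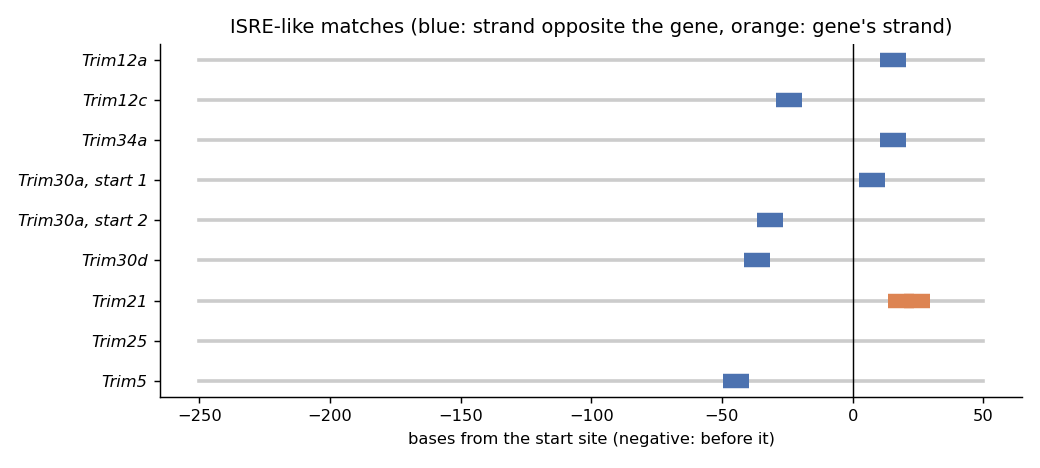
Position of the ISRE-like letters in the promoter windows of 7 members and *Trim5*. The horizontal axis gives bases from the annotated start site (vertical line), grey bars are the windows searched, and coloured blocks are matches, blue on the strand opposite the gene and orange on the gene's strand. Start 1 of *Trim30a* is the downstream one and start 2 the upstream one. The matches lie from 49 bases before the start (*Trim5*) to 29 bases after it (*Trim21*), and *Trim25* has none.

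The libraries held 6128845 to 11531734 expected counts. Counts were turned into CPM by TMM-adjusted library sizes, which makes libraries of different depth comparable, and genes were set beside each other in TPM, which is scaled to length. The alpha, beta and delta hormones matched the sorts, with *Gcg* at 74600 CPM or more in alpha libraries and 2980 or less elsewhere, *Ins2* at 17500 or more in beta libraries and 6500 or less elsewhere, and *Sst* at 9560 or more in delta libraries and 74.1 or less elsewhere. Summed *Ppy*, *Ghrl* and *Pyy*, markers of polypeptide and ghrelin cells, were at 3490 to 8230 CPM in control and 2230 to 3790 CPM in treated delta libraries. Their sum was 1970 to 4530 CPM in alpha and 104 to 733 CPM in beta libraries. Of 15 immune cell markers, whose cells also use TRIM genes, the summed level was 1.55 to 6.22 CPM in all libraries. *Ptprc*, which encodes CD45, was at 0 in all 6 beta libraries and at most 0.418 CPM elsewhere, and the macrophage marker *Adgre1* was at 0 in all libraries but 1 at 0.0819. Of the same list, *Cd68* was at 0.58 to 3.55 CPM, *Csf1r* at 0 to 1.34 CPM and *Lyz2* at 0 to 0.278 CPM over all libraries. One library, alpha IFNγ 2, stood apart: without it the genes called in alpha cells over the whole table went from 163 higher and 6 lower to 1798 higher and 1959 lower. Since these are sorted bulk samples, more RNA per cell and more cells that hold the RNA cannot be told apart.

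*Trim12a*, *Trim12c*, *Trim21* and *Trim34a* rose with IFNγ in alpha and in delta cells, and *Trim12c*, *Trim21* and *Trim34a* rose in beta cells, by 2.87 to 5.26 times. *Trim25* and *Trim14* did not pass the test in any cell type, and *Trim30a* and *Trim30d* were too low to be tested. The members called higher were therefore 4 in alpha, 3 in beta and 4 in delta cells, of 6 tested and 8 listed (edgeR quasi-likelihood test, adjusted p under 0.05). Over all 17338 genes tested, 0.94% were called higher in alpha, 1.06% in beta and 1.21% in delta cells. The median log2 fold change of the 6 tested members was 1.71, 1.64 and 1.89 in alpha, beta and delta cells, beside -0.01, 0.0 and -0.05 for all tested genes. No member was called lower, where 0.0346%, 0.00577% and 0.185% of all genes were. Since the members were chosen with earlier results of these data known, these shares and medians describe them and do not test the family.

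*Trim12c*, a relative of TRIM5 that works with the signalling ligase TRAF6, gave the lowest p of the 6 tested members in each cell type. Control alpha cells held 13.8, 11.2 and 13.6 CPM and IFNγ-treated alpha cells 61.8, 42.2 and 53.3. In beta cells the values were 6.98, 7.14 and 7.76 CPM without IFNγ and 32.3, 30 and 36.8 with it. Delta cells went from 11.3, 12.3 and 17.6 CPM to 64.4, 80.3 and 72.4. The control and IFNγ libraries did not overlap in any cell type, and the lowest treated value of each cell type was at least 30 CPM. The log2 fold changes were 2.03 (SE 0.20, adjusted p = 2.94e-06) in alpha, 2.18 (SE 0.21, 1.27e-06) in beta and 2.40 (SE 0.20, 2.08e-07) in delta cells by edgeR. Within the dates that held both treatments, the log2 difference was 1.58 and 2.20 in alpha and 2.13 and 2.00 in beta cells, and delta cells had no such date.

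*Trim12a* lies in the same cluster as *Trim12c*, with *Trim34b* between them. Its level was 5.52, 3.75 and 8.02 CPM in control and 22.6, 13.1 and 14.3 CPM in IFNγ-treated alpha cells. Beta cells held 2.14, 3.16 and 1.52 CPM without and 3.91, 6.05 and 8.74 CPM with IFNγ. Delta cells held 7.16, 11.2 and 9.86 CPM without and 41.2, 51.1 and 31.6 CPM with it. Treated libraries lay above their controls in all 3 cell types, and each treated delta library lay above every alpha and beta library. The log2 fold change was 2.13 in delta cells (SE 0.34, edgeR adjusted p = 0.000734) and 1.52 in alpha cells (SE 0.34, adjusted p = 0.0324), while the 1.45 of beta cells did not pass (SE 0.38, adjusted p = 0.11). The alpha call was lost in edgeR with alpha libraries alone (adjusted p = 0.168), without delta IFNγ 1 (0.0511), alpha IFNγ 1 (0.235) or either of alpha control 1 (0.13) and alpha control 2 (0.207), and with the replicate block (0.052). The beta value was past the threshold with DESeq2 (adjusted p = 0.0375) and in edgeR without the low-count filter (0.00626), but not with limma-voom (0.643). With the date term in edgeR it was 0.92 (adjusted p = 0.632). Within the dates that held both treatments, the log2 difference was 0.74 and 0.84 in beta and 1.18 and 1.80 in alpha cells.

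*Trim34a*, a member of the same cluster and a relative of *Trim6*, moved with *Trim12c*. Its values were 8.14, 6.56 and 11.4 CPM in control alpha cells and 36.4, 30.9 and 30.4 CPM in treated ones. Control beta cells had 6.27, 6.09 and 4.11 CPM and treated beta cells 30.6, 24.8 and 29.8. In delta cells 8.3, 12.5 and 12.7 CPM stood against 39.4, 68.3 and 37.5 CPM. No control library reached a treated library of its cell type, and delta IFNγ 2 was the highest of all 18. By edgeR the log2 fold changes were 1.89 (SE 0.27, adjusted p = 0.000296) in alpha, 2.36 (SE 0.28, 2.45e-05) in beta and 2.11 (SE 0.27, 5.12e-05) in delta cells. Of the 75-base stretches in the transcripts of *Trim34a*, 29.5% also occur in its near-copy *Trim34b* and 19% in *Gm47248*, so its share of reads is uncertain. *Trim34b* itself held 4 expected counts or fewer in each cell type and treatment, summed over 3 libraries.

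*Trim21* encodes the cytosolic antibody receptor and ubiquitin ligase, and shares no 75-base stretch with another gene's transcripts. Alpha cells held 6.97, 7.63 and 7.8 CPM without and 23.2, 26.4 and 37.0 CPM with IFNγ. Beta cells held 11.7, 11.2 and 7.61 CPM against 32.5, 35.4 and 40.4 CPM. For delta cells the values were 11.6, 10.2 and 10.7 CPM against 27.1, 39.1 and 36.3 CPM. In each cell type the libraries of the groups stood well apart, with every control at 11.7 CPM or less and every treated library at 23.2 CPM or more. The edgeR log2 fold changes were 1.95 (SE 0.23, adjusted p = 2.07e-05) in alpha, 1.82 (SE 0.22, 3.29e-05) in beta and 1.66 (SE 0.22, 9.22e-05) in delta cells.

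**Figure D2:**
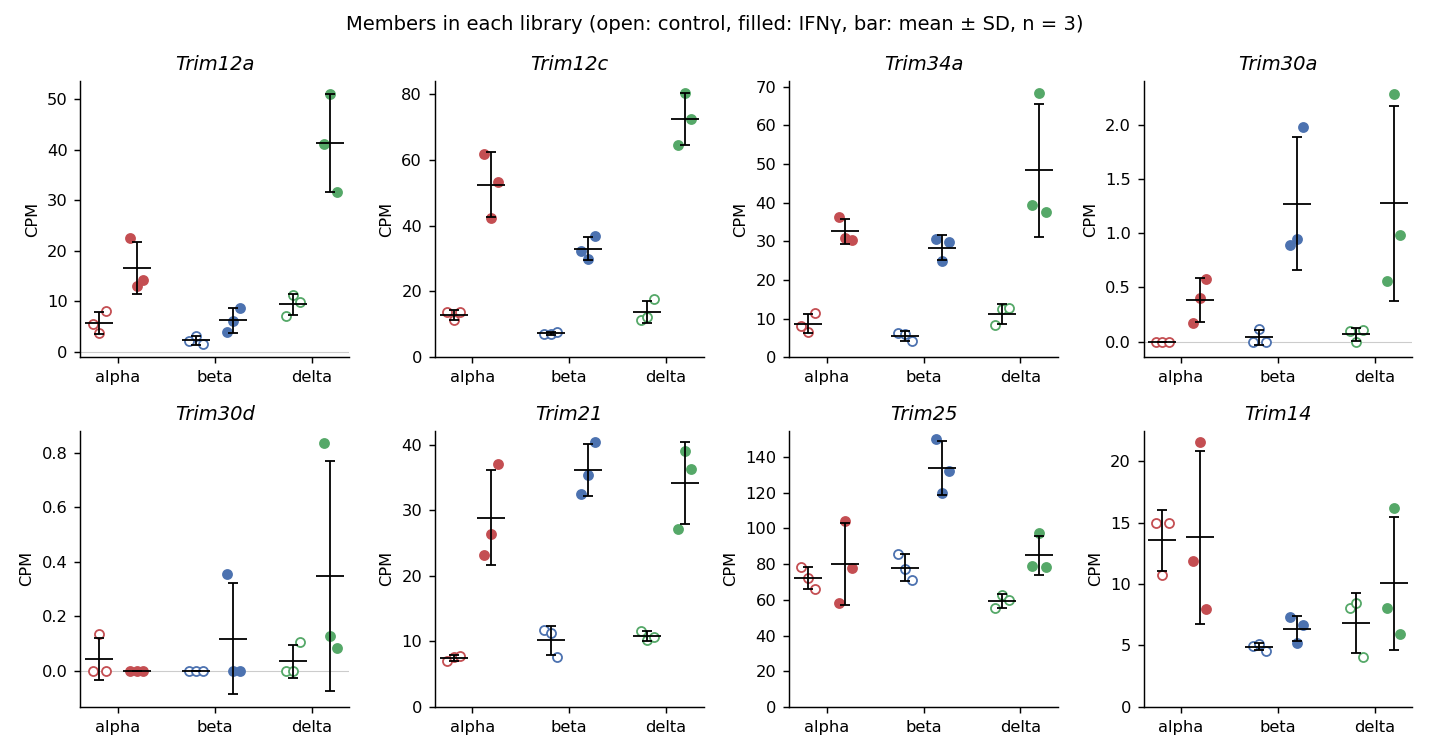
CPM of the 8 members in each of the 18 libraries, with cell types along the horizontal axis and a separate vertical scale (CPM, linear) for each gene. Open circles are control and filled circles IFNγ-treated libraries, and bars are mean ± SD of 3 libraries. *Trim12a*, *Trim12c*, *Trim34a* and *Trim21* show treated libraries above the controls in each cell type, *Trim14* overlaps in alpha and delta cells, and *Trim30d* is at 0 in most libraries.

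Other markers also differed between control and treated delta libraries. The delta hormone *Sst* was at 14700 to 35900 CPM without and 9560 to 14800 CPM with IFNγ, and the endothelial marker *Pecam1* at 0.477 to 1.45 CPM without and 2.05 to 3.62 CPM with it, while the 6 endothelial markers summed to 4.88 to 6.11 and 4.67 to 10.4 CPM. Their part in the delta rises was not tested.

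The delta calls had a further limit, since no date given for the libraries held both a control and a treated delta library. An edgeR fit was made with the date as a fixed term. Its log2 fold changes in delta cells were 1.42 for *Trim12a*, 1.5 for *Trim12c*, 1.88 for *Trim21* and 1.31 for *Trim34a*. Delta control 1 and 2 and delta IFNγ 2 and 3 were each the only library of their date, so the date term absorbed them. Only delta control 3 and delta IFNγ 1 were left to compare, through libraries of other cell types on their dates. The 4 calls were not kept in this fit, which for that reason cannot decide them. The sources used here do not say what a date stands for, and its part in the result was not tested beyond this fit.

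*Trim25*, which encodes the ubiquitin ligase of the RIG-I pathway, was the member with the highest control level per length in each cell type. Its values were 78.5, 72.5 and 65.8 CPM in control and 58.2, 104 and 77.7 CPM in treated alpha cells, which overlapped. In beta cells, 85.9, 77.5 and 70.9 CPM without IFNγ lay below 150.0, 120.0 and 132 CPM with it. Delta cells held 55.3, 62.8 and 59.8 CPM without and 78.8, 97.6 and 78.3 CPM with IFNγ, again without overlap. The log2 fold changes were smaller than those of the 4 genes above, at 0.15 in alpha (SE 0.19, edgeR adjusted p = 0.658), 0.78 in beta (SE 0.19, 0.0597) and 0.52 in delta cells (SE 0.19, 0.287). The beta value passed the threshold with DESeq2 (adjusted p = 0.011), with the date term (0.0483), with beta libraries alone (0.0354), and without alpha IFNγ 1 (0.022) or alpha IFNγ 2 (0.0154). In alpha cells the value turned to -0.09 without alpha IFNγ 2. *Trim25* shares no 75-base stretch with another gene.

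*Trim14*, the adaptor that joins the mitochondrial protein MAVS, gave overlapping libraries in alpha and delta cells. Alpha cells held 15, 10.7 and 15 CPM without and 11.9, 21.6 and 7.93 CPM with IFNγ. Beta cells held 4.99, 5.15 and 4.56 CPM against 7.28, 5.22 and 6.64 CPM. Delta cells held 8.02, 8.43 and 4.05 CPM against 8.07, 16.2 and 5.9 CPM. The spread among treated alpha and delta libraries was larger than the difference between treatments, with library 2 the highest of the 3 in both. The log2 fold changes were 0.02 (SE 0.38, edgeR adjusted p = 0.977), 0.37 (SE 0.41, 1.0) and 0.55 (SE 0.39, 0.613) in alpha, beta and delta cells. The 95% intervals of these values were wide, at -0.72 to 0.76, -0.43 to 1.17 and -0.21 to 1.31. The gene lies at chr4:46493781-46536141 on the minus strand and overlaps *Nans* on the plus strand, and 28.6% of its 75-base stretches occur in *Nans* transcripts on one strand or the other. *Nans* ran at 10.8 to 27.5 CPM, and while the libraries were made strand-specific, the sources used here do not state whether the counting used it.

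*Trim30a* and *Trim30d* were nearly silent. *Trim30a*, known in mouse immune cells as a brake on Toll-like receptor signalling through TAB2 and TAB3, had 0, 0 and 0 CPM in control alpha cells and 0.172, 0.401 and 0.58 CPM in treated ones. Beta cells had 0, 0.117 and 0 CPM against 0.888, 0.948 and 1.98 CPM, and delta cells 0.0954, 0 and 0.104 CPM against 0.557, 2.29 and 0.983 CPM. Each treated library was above every control library of its cell type, at levels of a few reads. Summed over 3 libraries, the expected counts were 0 and 12 in alpha, 1 and 30 in beta and 2 and 34 in delta cells. With 0 counts taken as a floor of 3 over the group, the alpha level was at least 2.97-fold higher with IFNγ, and the ratio of sums was 29.3 in beta (exact 95% counting interval 4.87 to 1200) and 18.3 in delta cells (4.7 to 157). The immune markers given above stood at 2.14 to 5.22 CPM in control and 1.55 to 2.61 CPM in treated alpha cells, at 2.28 to 4.7 and 4.03 to 6.22 CPM in beta cells, and at 2.91 to 5.06 and 2.37 to 5.48 CPM in delta cells. Their part in the *Trim30a* counts was not tested.

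*Trim30d* had 1 count in control and 0 in treated alpha cells, 0 and 2 in beta cells, and 1 and 8 in delta cells, summed over 3 libraries. In delta cells the treated libraries held 0.835, 0.127 and 0.0819 CPM against 0, 0 and 0.104 CPM in controls, so that the groups overlapped. The ratio of the delta sums was 8.62 (exact 95% counting interval 1.16 to 383), and most of those counts came from 1 library. No ratio is given for alpha and beta cells, where both sums were at or under 3 counts. *Trim30a* and *Trim30d* share 5.25% of the 75-base stretches of *Trim30d*. Of the other genes of that cluster, *Trim30b* had 12 counts in treated and 0 in control delta cells, and *Trim30c* and *Trim30e-ps1* had none in any library.

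**Figure D3:**
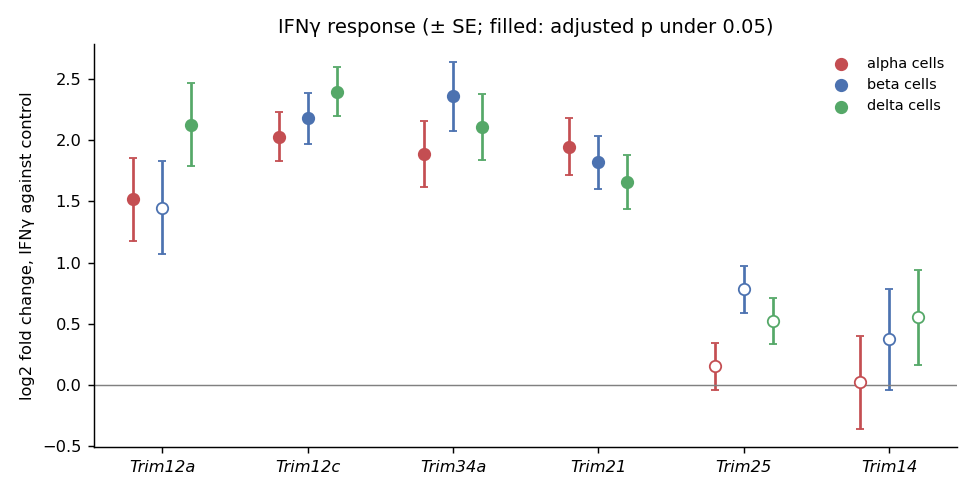
Log2 fold change with IFNγ against control for the 6 members that passed the low-count filter, in alpha (red), beta (blue) and delta cells (green), with bars of ± SE. Filled points have an edgeR adjusted p under 0.05 and open points do not. *Trim12c*, *Trim34a* and *Trim21* lie between 1.66 and 2.40 in all 3 cell types, and *Trim25* and *Trim14* lie below 1.

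The responses were then compared between cell types by the difference of the fold changes. None of the 6 tested members passed in any of the 3 pairs (edgeR), nor did any of the 17338 genes, which is 0% in each pair. At an unadjusted p under 0.05 the count of members was 1 between alpha and beta cells and 0 in both other pairs, and DESeq2 and limma-voom called none. Of all 17338 genes, 2305 were under 0.05 between alpha and beta, 822 between delta and beta and 783 between delta and alpha cells. That 1 member was *Trim25*, whose log2 response was 0.63 lower in alpha than in beta cells (difference -0.63, SE 0.27, 95% interval -1.16 to -0.10, edgeR adjusted p = 0.369). Without alpha IFNγ 2 this difference passed the threshold, but so did 674 genes higher and 701 lower of the 18038 tested in that fit. For *Trim12c* the differences were -0.15 (95% interval -0.70 to 0.40) for alpha less beta, 0.22 (-0.33 to 0.77) for delta less beta and 0.37 (-0.18 to 0.92) for delta less alpha. For *Trim21* they were 0.12 (-0.49 to 0.73), -0.17 (-0.78 to 0.44) and -0.29 (-0.90 to 0.32) in the same order. The intervals of *Trim12a* were wider, up to -0.98 to 1.14 for alpha less beta, and those of *Trim34a* reached from -1.21 to 0.27 in that pair.

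In control cells the mean levels of *Trim12a*, *Trim12c* and *Trim34a* were lowest in beta cells. *Trim12a* was higher in alpha than in beta cells by 1.33 on the log2 scale (SE 0.38, edgeR adjusted p = 0.0197) and higher in delta than in beta cells by 2.02 (SE 0.38, 0.000609). *Trim12c* was higher by 0.82 (SE 0.21, adjusted p = 0.00886) in alpha and by 0.91 (SE 0.21, 0.0035) in delta cells. *Trim34a* was higher in delta than in beta cells by 1.02 (SE 0.28, 0.0137), and its difference of 0.67 between alpha and beta cells did not pass (SE 0.28, 0.113). *Trim14* was higher in alpha than in beta cells by 1.46 (SE 0.40, adjusted p = 0.0143), and its difference between delta and alpha cells was -0.99 (SE 0.39, 0.0821). *Trim21* and *Trim25* did not pass in any pair, with differences between -0.45 and 0.53.

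Members called in control cells were thus 3 of 6 between alpha and beta, 3 of 6 between delta and beta and 0 of 6 between delta and alpha cells. Of all tested genes, 19.7%, 20.5% and 19.7% were called in those pairs. At an unadjusted p under 0.05, *Trim14* and *Trim21* differed between delta and alpha cells, as did 5791 of all 17338 tested genes. In alpha against beta cells, the count was 1 (*Trim12c*) without alpha control 3 or beta control 3. Beta control 3 was deposited under a name with papain in place of the CD71 that the other 5 beta libraries carry, and the sources used here do not state whether it was prepared differently. It also served as a control in the beta comparisons with IFNγ. Leaving it out there kept the calls of *Trim12c*, *Trim21* and *Trim34a*. The comparison of alpha with beta and that of delta with beta share the beta controls. Markers of acinar cells (11 genes, summed) were at 1050 to 2750 CPM in control delta, 10.2 to 38.9 CPM in control alpha and 2.59 to 1960 CPM in control beta libraries, and their part in these differences was not tested.

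Between genes, the order of the levels per length changed with IFNγ. In control cells *Trim25* was the highest member, with 10.7 ± 0.262 TPM in alpha, 9.54 ± 0.675 in beta and 7.27 ± 1.32 in delta cells (mean ± SD, n = 3), apart from the next member by more than their SDs. The next were *Trim14* with 5.89 ± 1.61 TPM in alpha cells and *Trim21* with 3.03 ± 1.25 TPM in beta and 3.72 ± 0.997 TPM in delta cells. In control beta cells, *Trim34a* at 1.2 ± 0.225 TPM and *Trim12c* at 1.03 ± 0.108 TPM lay within their spread, and *Trim12a* was at 0.67 ± 0.289 TPM. With IFNγ in beta cells the order was *Trim25* at 18.5 ± 3.35, *Trim21* at 10.9 ± 1.84, *Trim34a* at 6.96 ± 1.2, *Trim12c* at 5.35 ± 0.826, *Trim14* at 2.81 ± 0.817 and *Trim12a* at 1.86 ± 0.966 TPM. There, *Trim34a* and *Trim12c* did not differ beyond their spread, nor did *Trim14* and *Trim12a*. In treated delta cells *Trim21* (12.2 ± 4.16 TPM), *Trim34a* (9.58 ± 5.68), *Trim12a* (9.41 ± 4.09), *Trim12c* (9.25 ± 3) and *Trim25* (8.39 ± 2.75) all lay within their spread. In treated alpha cells the first 5 members, from *Trim25* at 10.6 ± 8.04 to *Trim14* at 6.15 ± 3.71 TPM, did likewise. *Trim30a* and *Trim30d* were at 0.303 TPM or less in every group mean.

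**Figure D4:**
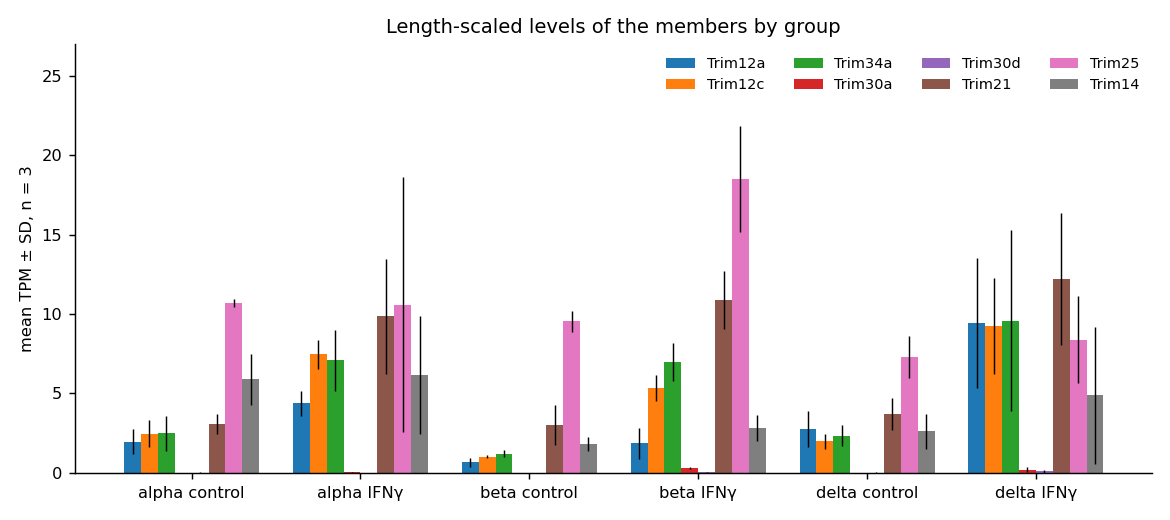
Mean TPM ± SD (n = 3) of the 8 members in each of the 6 groups, on a linear axis from 0. *Trim25* (pink) is the highest bar in the 3 control groups and in treated beta and alpha cells, and in treated delta cells *Trim21* (brown), *Trim34a* (green), *Trim12a* (blue), *Trim12c* (orange) and *Trim25* have overlapping error bars.

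The TPM ratio of *Trim12c* to *Trim12a*, a pair of relatives, was 0.545 to 1.22 in the 6 delta libraries, 1.21 to 1.88 in the 6 alpha libraries and 1.12 to 4.65 in the 6 beta libraries. These ranges overlapped, and their difference was not tested. In treated beta libraries it was 4.65, 3.04 and 2.14, and in control beta libraries 1.65, 1.12 and 2.3. These pairs share few reads, since 1.61% of the 75-base stretches of *Trim12a* occur in *Trim12c*, while 12.8% of those of *Trim12c* occur in *Trim5*. With the counts of both genes summed, the rise with IFNγ passed in beta cells (log2 fold change 2.04, edgeR adjusted p = 4.89e-06). Most of that sum was *Trim12c*, which passed alone, with 160.72 expected counts in control and 751.34 in treated beta cells. *Trim12a* held 52 and 147.55, so the sum does not show a rise of *Trim12a* by itself.

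Among the 64 other TRIM family genes, 37 passed the low-count filter and few moved. These genes are what the choice of members left, so their contrast with the members is a description. In beta cells 1 was called higher (*Trim5*) and in delta cells 2 (*Trim5* and *Trim56*), and none was called lower in any cell type. In alpha cells edgeR and limma-voom called 0 higher and DESeq2 called 1 (*Trim56*). There, 13 of 37 were at an unadjusted p under 0.05 in either direction, as were 3751 of all 17338 tested genes. The median log2 fold change of the 37 genes was 0.02 in alpha, 0.03 in beta and -0.10 in delta cells. *Trim5*, the third relative of the retrovirus restriction factor in this cluster, had 0, 0.117 and 0.304 CPM in control and 1.6, 1.54 and 0.932 CPM in treated beta cells. In delta cells it had 1.34, 1.19 and 1.14 CPM against 11.3, 15 and 9.01 CPM, and in alpha cells 2.91, 1.74 and 1.71 CPM against 5.69, 2.71 and 3.67 CPM.

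*Trim5* libraries thus overlapped only in alpha cells. Of its 75-base stretches, 12.4% also occur in *Trim12c* and 4.64% in *Trim12a*, so its share of reads is uncertain. In treated delta cells *Trim12c* and *Trim12a* had means of 72.4 and 41.3 CPM beside 11.8 CPM for *Trim5*. In treated beta cells these means were 33.1, 6.23 and 1.36 CPM. The ratio of the summed *Trim5* counts was 9.77 in beta cells (3 and 30 counts, exact 95% counting interval 3.04 to 50.1), and the edgeR adjusted p there was 0.0153. Leaving out beta control 1 or 2 or beta IFNγ 1 or 2 ended the call, as did limma-voom, log2(TPM + 1) and beta libraries alone. The log2 fold change of *Trim5* was 3.25 in delta cells (SE 0.44, edgeR adjusted p = 0.000124) and 0.93 in alpha cells (SE 0.42, 0.21), and the delta call was lost with the date as a fixed term. The difference of these responses, 2.31 (SE 0.60, 95% interval 1.13 to 3.49), did not pass (edgeR adjusted p = 0.876). *Trim56*, a ubiquitin ligase linked to STING and antiviral signalling, rose by 0.70 in delta cells (SE 0.17, adjusted p = 0.0463), and the values in alpha and beta cells were 0.55 (0.14) and 0.42 (0.874). The delta call of *Trim56* was lost when any 1 of the 18 libraries was left out, except alpha IFNγ 2 or delta IFNγ 3. In alpha cells the 3 other TRIM genes with the lowest p were *Trim56*, *Trim9* (-0.63, adjusted p = 0.156) and *Mid2* (0.74, 0.159). *Trim6*, next to *Trim34a*, was not called in any cell type.

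**Figure D5:**
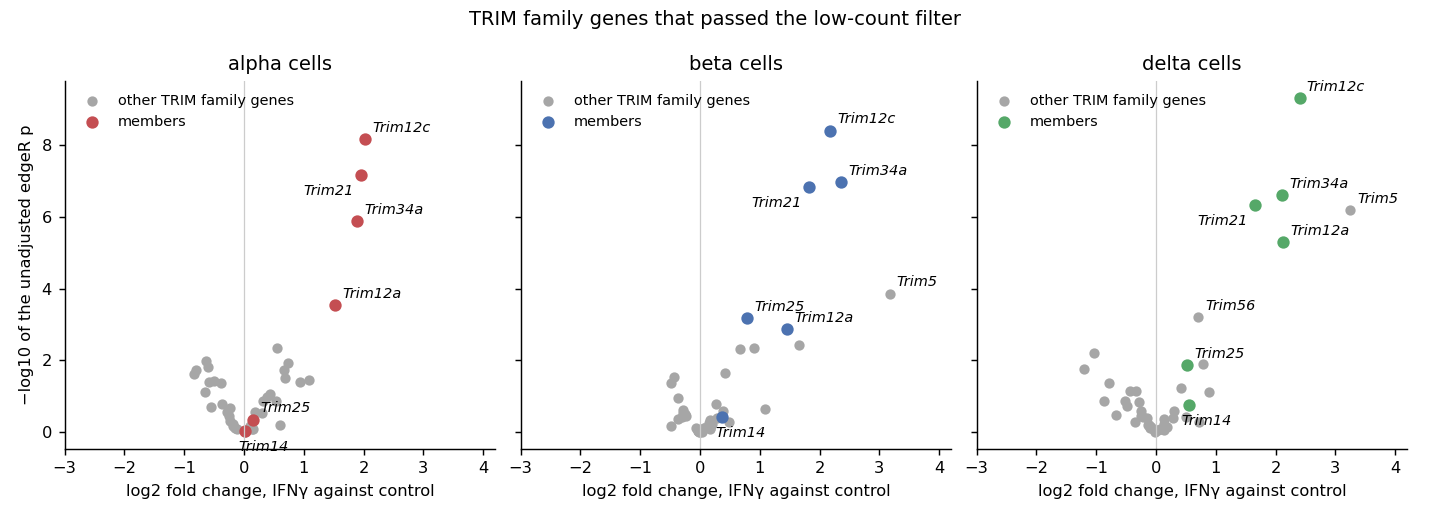
Log2 fold change with IFNγ against control (horizontal axis) and −log10 of the unadjusted edgeR p (vertical axis) for the 6 tested members (coloured) and the 37 other tested TRIM family genes (grey) in each cell type. Gene names mark the members and the other genes with an adjusted p under 0.05. *Trim12c*, *Trim21* and *Trim34a* sit at the upper right in each panel, and *Trim5* joins them in beta and delta cells.

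Of the genes for proteins that TRIM ligases act on or with, 22 were listed, and the RNA of 19 was tested. Of these, 4 rose in alpha cells, 5 in beta cells and 5 in delta cells, and none fell. The 4 that rose in all 3 cell types were *Ddx58*, which encodes the RIG-I activated by TRIM25, the related RNA sensors *Ifih1* and *Dhx58*, and *Ube2l6*, a conjugating enzyme for ISG15. *Ddx58* rose by 1.24, 1.44 and 1.71 on the log2 scale in alpha, beta and delta cells (edgeR adjusted p = 0.00234, 0.000372 and 4.29e-05). The list's median log2 fold change was 0.52, -0.08 and 0.15.

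The IFNγ pathway was followed through the RNA of 13 genes, all tested. Of them, 5 rose in alpha, 7 in beta and 8 in delta cells and none fell, with medians of 0.83, 0.75 and 1.09. *Stat2*, which encodes a partner of the regulatory factor encoded by *Irf9*, and the regulatory factor genes *Irf1*, *Irf8* and *Irf9* were among those that rose in all 3 cell types. *Irf1* rose by 1.88, 2.32 and 2.27 on the log2 scale in alpha, beta and delta cells (SE 0.22 each, edgeR adjusted p = 2.07e-05, 1.16e-06 and 1.45e-06). *Irf8*, low in these cells, went from summed counts of 1, 3 and 4 to 82, 129 and 149 in alpha, beta and delta cells. It passed the low-count filter only through treated libraries, so its calls, counted in the 5, 7 and 8 above, add no support for its rise.

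Over the 18 libraries, the genes outside the 8 whose log2 CPM was most like that of a member were counted by Pearson's r, as a description in which libraries of a cell type and treatment share their group. For *Trim12c* they were *Ly75*, *Gbp9* and *Mlkl* (r = 0.98, 0.97 and 0.96) and for *Trim34a* *Gbp9*, *Ly75* and *C2* (0.97, 0.97 and 0.96). *Trim21* was most like *Parp9*, *Cd274* and *Irgm1* (0.98 each). *Trim25* was nearest to *Znfx1*, *Ncoa3* and *Tapbpl* (0.94, 0.91 and 0.91), *Trim12a* to *Gm26797*, *Pign* and *Zfp945* (0.95, 0.93 and 0.93), and *Trim14* to *Plekhn1*, *Kmt2a* and *Perm1* (0.95, 0.94 and 0.93). Among the members, *Trim12c* and *Trim34a* had the highest r of any pair (0.97), and *Trim14* had r between 0.01 and 0.39 with the other 5.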

How the data were processed

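Total RNA of the sorted cells was made into random-primed, rRNA-depleted libraries (Ovation SoLo) and sequenced as paired reads. Per the labels and the study's methods, reads were aligned with STAR 2.5.2b to GRCm38 and quantified with RSEM (the sources used here do not state its version). The deposited files, 1 for each library, hold expected counts, length-scaled TPM and FPKM, and effective lengths, all made by the authors with RSEM. FPKM was not used. Library totals were 6128845 to 11531734 (median 8697388), and intervals and floors cover counting error only. The sources used here do not state whether strand or molecular identifiers entered the counting. Symbols and positions came from GENCODE M21 on the same build, while the study names a later release, and 55227 of 55487 genes matched (99.53%).

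Expected counts were rounded and fitted with edgeR 4.0.16 in R 4.3.3 over all 18 libraries, with 1 mean per group, TMM scaling and a low-count filter (filterByExpr, minimum count 10) that kept 17338 genes and 6 of the 8 members. The quasi-likelihood F-test was used with a threshold of 0.05 on p-values adjusted (Benjamini-Hochberg) over the whole table. The study used DESeq2 with batch in its design, and the labels give no batch. Groups came from the labels. The members, gene lists and alternatives were chosen with earlier results of these data known. Named were the 8 members, other TRIM genes past the threshold in a cell type (or the 3 with the lowest p), list genes past it in all 3 cell types (1 item is not reported here), and the 3 genes most like each member (log2 of CPM + 1). Alternatives were DESeq2 1.42.0, limma 3.58.1 (voom, and log2 of TPM + 1), other size factors, no filter, summed near-copies, a date term, a replicate block, fewer cell types, and leaving out each library. Within-date differences used log2 of CPM + 0.5. The fit was tested on simulated data. Stretches of 75 bases were compared across GENCODE M21 transcripts on both strands.

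Same-numbered control and treated libraries did not deviate together in all pairs (9 correlations from -0.245 to 0.348, mean 0.136), so the numbers were not taken as pairs. Libraries of the same date and different groups correlated by 0.219 on average over 18 pairs, and those of other dates by -0.034 over 117 pairs. The main fit had no term for the date.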

Additional observations from a re-analysis of the deposited data

How the results depend on the processing

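The rises of *Trim12c*, *Trim21* and *Trim34a* with IFNγ in beta cells kept their direction and side of the threshold in all 9 alternatives, and so did that of *Trim12c* in alpha cells. With log2(TPM + 1), the members called higher in alpha cells were 1 in place of 4, with *Trim21* at an adjusted p of 0.0538, *Trim34a* at 0.15 and *Trim12a* at 0.274, and members that differed between control cells were 0 for alpha against beta and 1 for delta against beta, while other TRIM genes called in delta cells were 1. DESeq2 called 5 members in beta cells and 1 other TRIM gene in alpha cells. With the date as a fixed term the delta calls were not kept, in the fit described above that cannot decide them. Without the low-count filter, other TRIM genes were 1 in alpha, 3 in beta and 1 in delta cells, and 1 member differed between delta and alpha control cells. With limma-voom, 0 other TRIM genes were called in beta cells, and with only the cell types compared 2 in beta (*Pml* and *Trim66*, without *Trim5*) and 1 in delta cells. With log2(TPM + 1) the 1 such gene in beta cells was *Trim66* in place of *Trim5*. The replicate block gave 1 other TRIM gene in delta cells and 1 member (*Trim14*) between delta and alpha control cells, and put *Trim12a* in alpha cells at an adjusted p of 0.052. With the replicate block, *Trim14* in alpha cells turned to -0.09. It was -0.09 with limma-voom and -0.05 with log2(TPM + 1), and *Trim25* in alpha cells was -0.22 with log2(TPM + 1). None of these 4 values was called. The causes were not tested.

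Leaving out each of the 18 libraries gave 3 to 5 members called in alpha, 3 to 4 in beta and 4 to 5 in delta cells, the 5 including *Trim30a* without alpha IFNγ 2 or delta IFNγ 1. *Trim30a*, too low to be tested with all 18 libraries, passed the low-count filter there only through treated libraries, so these calls add no support for its rise. Other TRIM genes called were 0 to 3 in alpha (3 without alpha IFNγ 2), 0 to 2 in beta (2 without alpha IFNγ 1) and 1 to 2 in delta cells. Members whose response differed were 0 to 1 for alpha and beta (1 without alpha IFNγ 2) and 0 in both other pairs. Without alpha IFNγ 2, 674 genes of the whole table passed higher and 701 lower between alpha and beta cells. Members that differed between control cells were 1 to 3 for alpha and beta, 2 to 3 for delta and beta and 0 to 1 for delta and alpha (1 without alpha IFNγ 2). *Trim14* in alpha cells lay between -0.45 and 0.30, turning to -0.12 without alpha control 2 and -0.45 without alpha IFNγ 2, and *Trim25* in alpha cells between -0.09 and 0.34.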

Other observations

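The RSEM effective length of *Trim14* varied between libraries, from 912 bases in delta IFNγ 2 to 1620 bases in beta control 2. *Trim6*, which lies beside *Trim34a*, was higher in control delta than in control beta cells by 3.52 on the log2 scale (SE 0.74, edgeR adjusted p = 0.00178) and higher in control alpha than in control beta cells by 2.45 (SE 0.78, adjusted p = 0.0324), at 0.934 to 2.27 CPM in control delta, 0.581 to 1.2 CPM in control alpha and 0.117 to 0.152 CPM in control beta libraries. *Trim5* was also lowest in control beta cells, higher in alpha than in beta cells by 3.81 (SE 0.63, adjusted p = 0.000257) and in delta than in beta cells by 3.04 (SE 0.66, adjusted p = 0.00227), at 1.71 to 2.91 CPM in control alpha, 1.14 to 1.34 CPM in control delta and 0.304 CPM or less in control beta libraries. With 3 counts for *Trim5* over the control beta libraries and under 2 counts per library for *Trim6* there, these folds rest on counts near the floor.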
